A study of Drosophila melanogaster with 12 samples.

Results

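The genes of the circadian clock were followed through whole heads of adult Drosophila melanogaster of the ORE-R wild-type strain, sequenced as polyA RNA. The 10 genes were period (per), timeless (tim), Clock (Clk), cycle (cyc), vrille (vri), PAR-domain protein 1 (Pdp1), cryptochrome (cry), clockwork orange (cwo), double-time (dbt) and the PDF receptor gene Pdfr. They were chosen by symbol, 10 of 17856 features with a gene identifier in the deposited table. Of these, 9 stood under their own symbol. dbt was listed as dco (FBgn0002413), a symbol of the same gene for which RefSeq gives dbt as a synonym. All 10 passed the filter on low counts.

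The 12 libraries fell into 4 groups of 3, all of the same ORE-R genotype. Females and males were kept together for 3 to 5 days after eclosion and then spent 7 days either alone or in same-sex groups of 25. Each library held RNA from 200 heads of flies frozen within 24 hours of the final day. The sources used here give neither the time of day at which a pool of flies was frozen nor the lighting schedule. The labels put replicate 0 of each group in batch 1 and replicates 1 and 2 in batch 2. Nothing in the labels says that the pools were separate cultures; the p-values therefore reflect library-to-library spread only, some of which may be technical.

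The clock of the fly is a feedback loop of transcription. CLK and CYC, which bind DNA as a pair, switch on per, tim, vri, Pdp1 and cwo, and the PER and TIM proteins later return to the nucleus and block CLK and CYC. In a linked loop the VRI protein represses Clk and cry, while PDP1 activates Clk. In heads of flies kept in light and dark, the messenger RNAs of per, tim and vri are known to peak in the early night, and those of Clk and cry near dawn. Much of the clock RNA of a whole head comes from photoreceptors, which have clocks of their own, besides glia, fat body and the clock neurons of the brain.

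Total counts over features ran from 2584050 in isolated female replicate 1 to 17122099 in group-housed female replicate 0. Isolated female replicate 2 was the next shallowest at 3224485, while replicate 0 of that group had 9637727. Each clock gene had its lowest count in isolated female replicate 1. The shallowest value behind any clock gene was 46 reads of per in isolated female replicate 1 (95% exact Poisson interval 33.7 to 61.4, counting error only). Markers of all the head tissues examined were present, and no gene of the photoreceptor, neuron, glia or fat body lists was at 0 in every library. Photoreceptor markers (10 genes) summed to 18000 to 20060 CPM (counts per 1000000 counts of the library) in group-housed females, 15270 to 18540 in isolated females, 15890 to 19510 in group-housed males and 15500 to 18320 in isolated males. The corresponding sums of 5 glial markers were 1490 to 1770, 1491 to 1804, 1818 to 1962 and 1738 to 1903 CPM. Sums of 6 neuronal markers overlapped among all 4 groups, at 4008 to 6645 CPM. The 10 fat body markers, several of them yolk and larval serum proteins, summed to 25460 to 32960 CPM in group-housed females and 52540 to 66970 CPM in isolated females, against 12350 to 16070 CPM in males. Their part in the clock gene values below was not tested. In whole heads, fewer cells of a type and less RNA per cell cannot be told apart.

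Positions are those of the BDGP6.54 annotation, in which all 10 are protein-coding; the sources used here do not name the build used for counting. The 2 partners of the repressor complex are per on X:2685580-2692780 (plus strand) and tim on 2L:3493986-3508119 (minus strand). The activators are Clk on 3L:7763233-7775603 and cyc on 3L:19813770-19815938, both on the minus strand. The genes of the linked loop are vri on 2L:5288944-5311223 (plus strand), Pdp1 on 3L:7811458-7867369 (minus strand) and cwo on 3R:10388258-10400752 (plus strand). The light sensor cry lies on 3R:19212154-19215442 (plus strand), the kinase gene dbt on 3R:31054085-31061210 (minus strand) and the receptor gene Pdfr on X:2552206-2578640 (plus strand). Exons of tim shared 545 of 7039 bases with a non-coding RNA gene on the opposite strand and 151 with a small nucleolar RNA on the same strand. Exons of cry shared 329 of 1896 bases with a non-coding RNA gene on the same strand and 9 with vib on the opposite strand, and those of per shared 49 bases with dyw. Whether the counting used strand is likewise not stated there, so reads of these overlaps cannot be assigned with certainty and the 3 genes are uncertain to that extent.

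Levels were compared between the clock genes per kilobase of exon. cry was the highest at 134 ± 22.1 CPM per kilobase (SD, n = 12), and stood above the gene next in order in 11 of 12 libraries. Pdp1 followed at 73.1 ± 19.3, dbt at 70.5 ± 13.6 and tim at 59.8 ± 25.7 CPM per kilobase. Pdp1 was above dbt in 6 of 12 libraries, so that pair had no order beyond its spread, and dbt was above tim in 8. Next came vri at 44.3 ± 13.99, cwo at 28.7 ± 2.97, Pdfr at 25.8 ± 2.55, cyc at 19.9 ± 2.43 and Clk at 17.2 ± 4.94 CPM per kilobase. cyc exceeded Clk in 8 of 12 libraries. per was the lowest at 8.74 ± 3.20 CPM per kilobase, below Clk in 11 of 12.

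The genes known to peak in the early night are described first. For tim, whose protein is the light-sensitive partner of PER, group-housed females had 537, 739 and 220 CPM in replicates 0, 1 and 2, a 3.36-fold range. Isolated females had 284, 247 and 393 CPM, group-housed males 581, 264 and 712, and isolated males 411, 285 and 381. In both sexes the highest tim values were in group-housed libraries, yet 1 group-housed library of each sex (replicate 2 of females, replicate 1 of males) lay among the lowest of all. per, which encodes the repressor itself, had 65.0, 63.1 and 21.5 CPM in group-housed females and 28.2, 20.7 and 33.4 CPM in isolated females. In males it had 54.3, 34.6 and 40.1 CPM under group housing and 36.1, 37.0 and 40.7 CPM under isolation. per was thus low in the same group-housed female library as tim. For vri, which encodes the repressor of Clk, the values were 254, 350 and 208 CPM in group-housed females and 135, 175 and 188 CPM in isolated females. The male values of vri were 226, 149 and 302 CPM under group housing and 188, 129 and 216 CPM under isolation. Every isolated female library was below every group-housed female library for vri, whereas the groups overlapped for tim and per.

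Genes of the dawn phase went the other way. Clk, the activator that is itself rhythmic, had 75.1, 37.2 and 106 CPM in group-housed females and 118, 76.6 and 69.5 CPM in isolated females. In group-housed males it had 71.0, 89.4 and 47.7 CPM, and in isolated males 90.7, 83.8 and 70.3 CPM. The 2 lowest Clk values were those of the 2 libraries highest in tim, group-housed female replicate 1 and group-housed male replicate 2. cry, the blue-light receptor that triggers the breakdown of TIM, had 186, 195 and 236 CPM in group-housed females and 271, 286 and 310 CPM in isolated females, with no overlap. In males cry had 229, 304 and 216 CPM under group housing and 261, 269 and 294 CPM under isolation, with the isolated values inside the range of the group-housed ones.

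**Figure D1:**
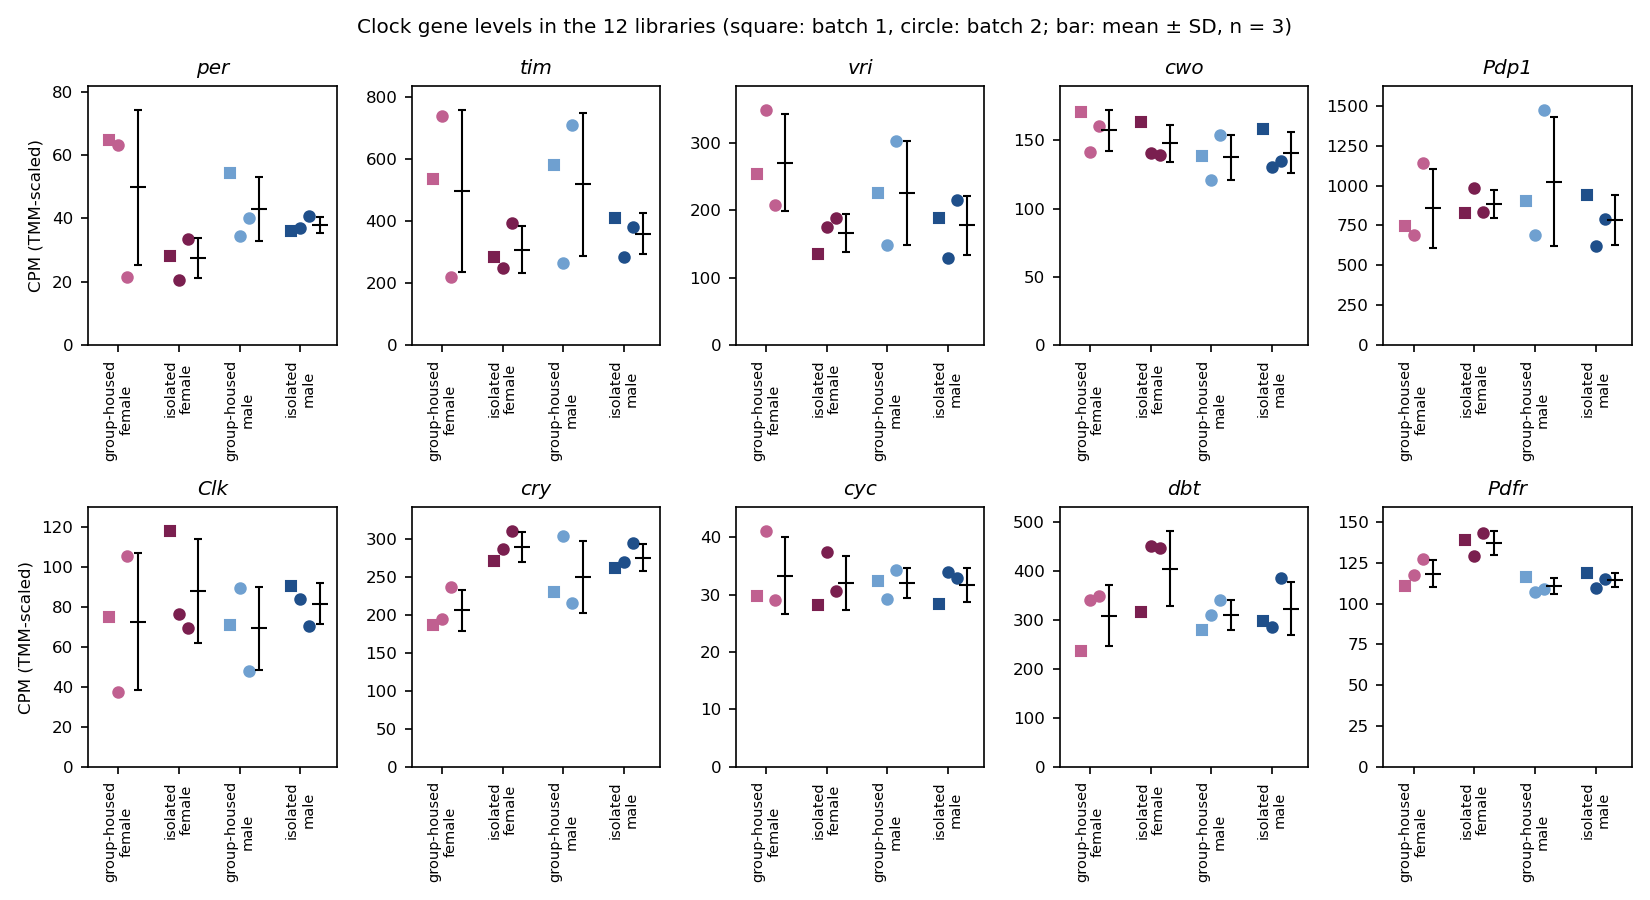
Levels of the 10 clock genes in each library, as CPM relative to TMM-scaled library sizes (vertical axis, linear, from 0), by group (horizontal axis); squares are batch 1, circles batch 2, and black bars the mean ± SD of 3 libraries. tim, per, vri and Clk spread widely within the group-housed groups, while Pdfr, cwo and cyc lie close together.

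To compare early-night with dawn RNA in each library, the genes of opposite phase were set against each other. Such a contrast gives no time of day, since a rising and a falling phase can have the same value. The clock phase index of a library was the mean log2 CPM of per, tim and vri minus that of Clk and cry, each gene first centred on its mean over the 12 libraries, so that a high value means much early-night RNA and little dawn RNA. Group-housed females had indices of 0.75, 1.51 and -0.72, and isolated females -0.86, -0.67 and -0.18. Group-housed males had 0.53, -0.63 and 0.95, and isolated males -0.19, -0.50 and -0.0024. The 4 highest indices were all of group-housed libraries and all 6 isolated libraries were below 0, but 2 group-housed libraries were also low. By sign, all 3 early-night genes were above and both dawn genes below their mean in 3 group-housed libraries and in 0 isolated ones. The reverse pattern was found in 1 group-housed library and 3 isolated ones, and the other 5 libraries were mixed. Of the 2 low group-housed libraries, male replicate 1 had the reverse pattern and female replicate 2 was mixed. In the latter vri was slightly above its mean (0.049) and cry slightly below (-0.092).

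The index averaged 0.51 ± 1.14 in group-housed females, -0.57 ± 0.35 in isolated females, 0.29 ± 0.82 in group-housed males and -0.23 ± 0.25 in isolated males (SD, n = 3 each). Isolated minus group-housed was -1.08 in females and -0.51 in males. In size each was smaller than the SD of the group-housed libraries and larger than that of the isolated ones. Within batches the difference was -1.61 in batch 1 and -0.82 in batch 2 for females, and -0.72 and -0.41 for males. Single libraries set the size of these differences. In females it was -0.58 without group-housed replicate 1 and -1.70 without group-housed replicate 2. In males it was -0.18 without group-housed replicate 2 and -0.97 without group-housed replicate 1. The ratio of tim to Clk counts, which needs no scaling between libraries, ran from 2.08 to 19.9 in group-housed females, a 9.54-fold range, and from 2.40 to 5.66 in isolated females. In males it ran from 2.96 to 14.9 under group housing and from 3.40 to 5.43 under isolation. In each sex the range of the isolated libraries lay inside that of the group-housed ones.

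**Figure D2:**
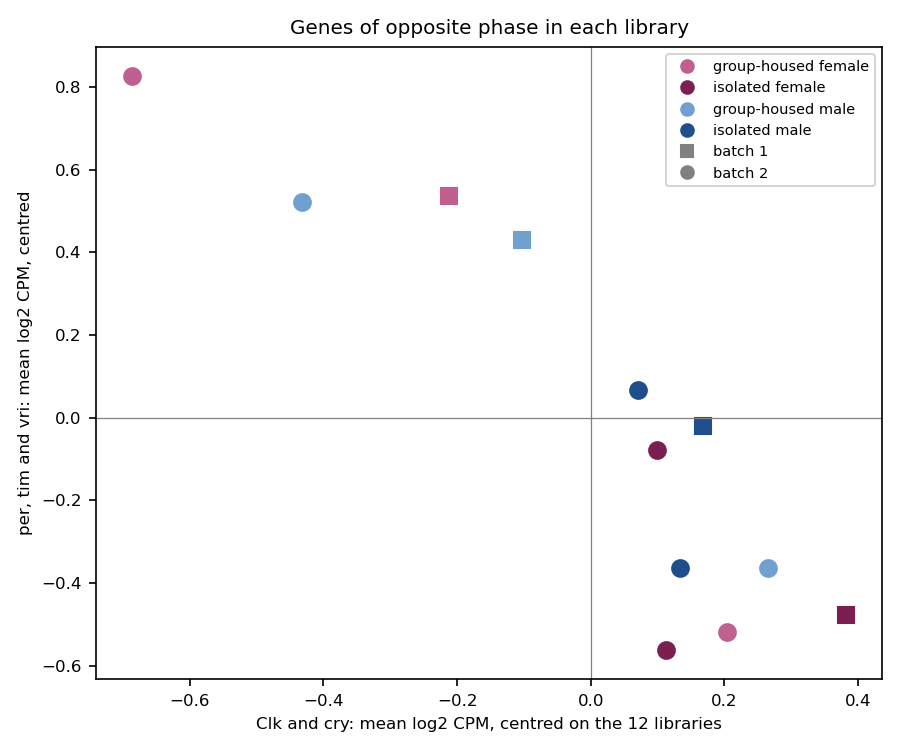
Mean centred log2 CPM of per, tim and vri (vertical axis) against that of Clk and cry (horizontal axis) in each of 12 libraries; colours are groups, squares batch 1 and circles batch 2. Libraries run from upper left, where 4 group-housed libraries lie, to lower right, and all 6 isolated libraries lie to the right of 0 together with 2 group-housed ones.

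tim was taken as the reference for how the clock genes moved together over the 12 libraries (9 relations, permutation tests of log2 CPM, two-sided). The permutations moved values freely over all 12 libraries, so differences between groups and batches can enter these p-values. per followed tim (Pearson r = 0.833, permutation p = 0.00091, adjusted over the 9 relations 0.00369; Spearman rho = 0.818, permutation p = 0.00178). The relation of per held without the 2 libraries farthest from the median of tim (r = 0.884, permutation p = 0.00071, adjusted 0.00639, n = 10). vri also varied with tim (r = 0.815, permutation p = 0.00123, adjusted 0.00369; rho = 0.734, permutation p = 0.00858). Clk ran opposite to tim (r = -0.81, permutation p = 0.00069, adjusted 0.00369; rho = -0.727, permutation p = 0.00953). cry ran opposite as well, less tightly (r = -0.67, permutation p = 0.0198, adjusted 0.0446; rho = -0.601, permutation p = 0.0418, adjusted 0.094). Without group-housed female replicate 1 and group-housed male replicate 2, the 2 libraries farthest out, these 3 relations kept their direction but none had a permutation p under 0.05. There r was 0.624 for vri (permutation p = 0.0563), -0.596 for Clk (permutation p = 0.0717) and -0.476 for cry (permutation p = 0.163). Leaving out the extremes of tim also narrows its range, so this cannot show whether the relations rested on that pair.

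The relations to tim were recomputed within batch 2 and within groups. In batch 2, r was 0.81 for per, 0.825 for vri, -0.959 for Clk and -0.633 for cry over 8 libraries; batch 1 holds 4 libraries, too few for a value. For deviations from the group means, r was 0.813 for per, 0.835 for vri, -0.781 for Clk and -0.735 for cry. The other genes had weak relations to tim, none past the threshold. Their r was 0.123 for Pdp1 (permutation p = 0.713), 0.168 for cwo (permutation p = 0.6), 0.401 for cyc (permutation p = 0.196), -0.266 for dbt (permutation p = 0.405) and -0.339 for Pdfr (permutation p = 0.28).

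**Figure D3:**
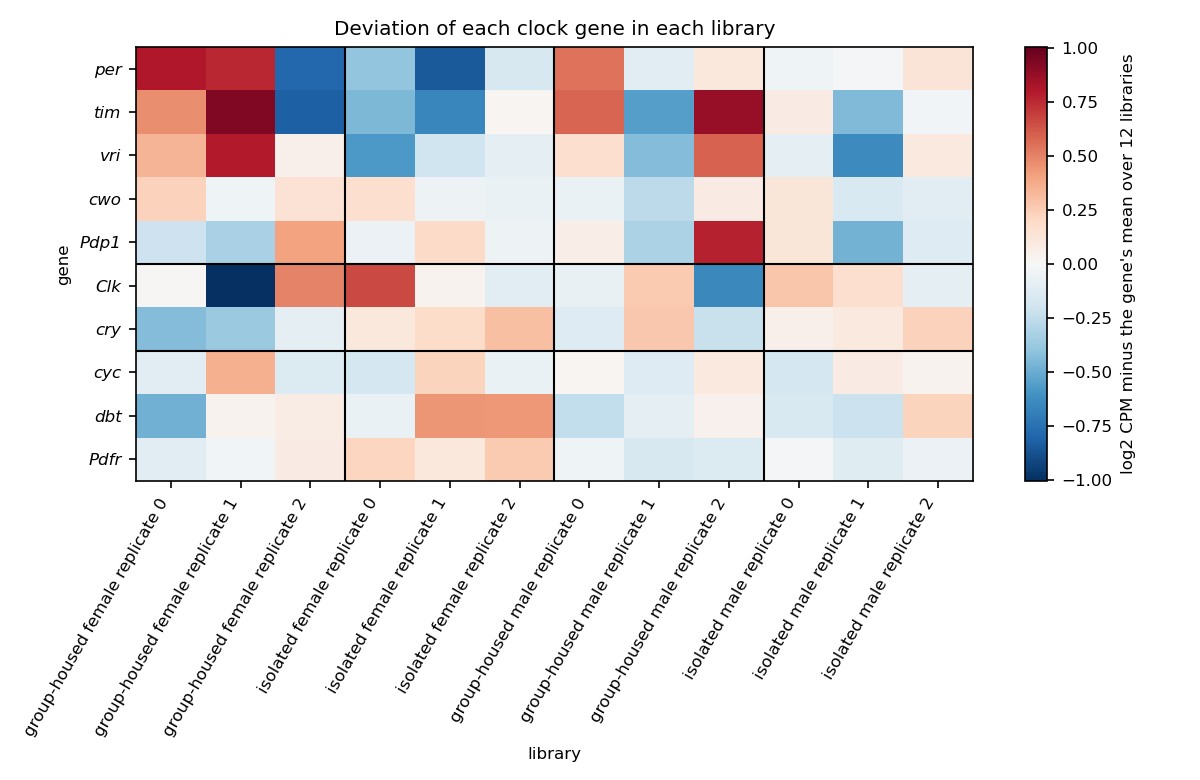
Deviation of each clock gene (rows) from its own mean log2 CPM in each library (columns, grouped by housing and sex). Red is above and blue below the mean. Horizontal lines separate per, tim, vri, cwo and Pdp1 from Clk and cry, and these from the rest. In group-housed female replicate 1 and group-housed male replicate 2, tim and vri are red where Clk and cry are blue.

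The genes outside the index behaved differently among themselves. Pdp1, the activator of Clk, had its highest values in group-housed male replicate 2 at 1476 CPM and in group-housed female replicate 2 at 1140 CPM, although these 2 libraries lay at opposite ends for tim. The other 10 libraries had 623 to 985 CPM of Pdp1. Pdp1 gives rise to several isoforms of which only some are known to cycle, and the table counts them together. cwo, a repressor of the targets of CLK and CYC, stayed within 121 to 171 CPM over all libraries, a 1.41-fold range. cyc, whose RNA is known to be nearly constant through the day, stayed within 28.3 to 41.1 CPM. dbt, the kinase that marks PER for breakdown, ran from 237 to 452 CPM, and Pdfr, the receptor for the PDF peptide of clock neurons, from 107 to 144 CPM.

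Replicate spread therefore differed strongly between clock genes. After group and batch were fitted, the residual SD of log2 CPM was 0.65 for tim, 0.51 for per, 0.49 for Clk, 0.42 for vri and 0.40 for Pdp1. Among 5043 features of mean log2 CPM 5 or more, whose median was 0.19, tim stood at percentile 99.8, per at 99.2, Clk at 99.0, vri at 97.1 and Pdp1 at 96.5. By contrast cyc (0.18), dbt (0.16), cry (0.16), cwo (0.12) and Pdfr (0.079) were below that median, Pdfr at percentile 2.04. The depth of the libraries enters these SDs, and its part was not tested.

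**Figure D4:**
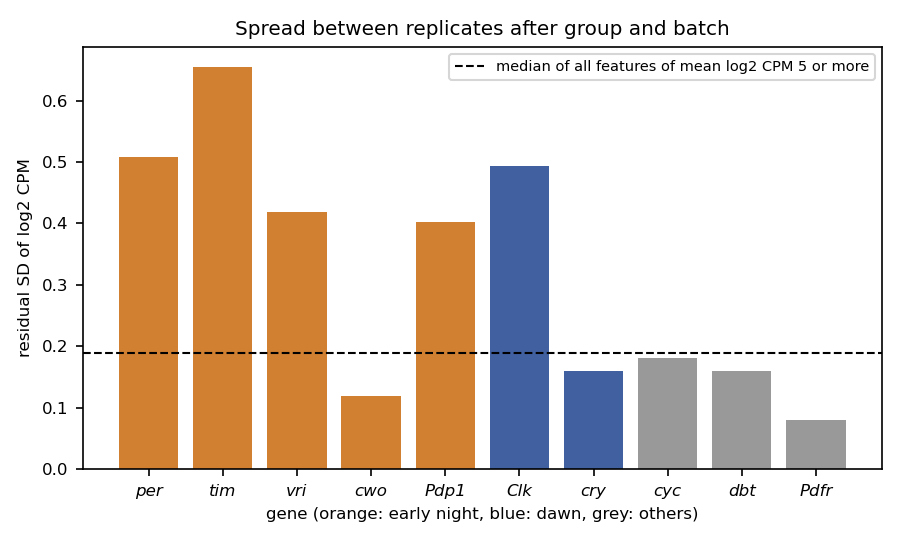
Residual SD of log2 CPM after group and batch (vertical axis) for each clock gene (horizontal axis). Orange, labelled early night, covers per, tim and vri and also cwo and Pdp1, which are outside the phase index. Clk and cry are in blue and the others in grey. The dashed line is the median of 5043 features, 0.19. tim, per, Clk, vri and Pdp1 stand above the line and the other 5 genes below it.

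Whether a week alone changed clock RNA was asked first in females. None of the 10 clock genes passed the threshold of 0.05 on the adjusted p of edgeR's quasi-likelihood test, against 3.48% of the 10238 features tested. At an unadjusted p under 0.05 there were 4, per, vri, cry and dbt, against 14.3% of all features. DESeq2 called 1, cry (adjusted p = 0.0174), against 5.55% of features, and limma-voom 0, against 4.24%. With no filter on low counts, edgeR called 3, per (adjusted p = 0.00039), tim (adjusted p = 0.000778) and vri (adjusted p = 0.000233), all lower in isolated females, against 2.43% of the features then tested; the cause of this gap was not tested. The median log2 difference was -0.01 over the 10 genes and -0.02 over all features. Since 5 of the 10 estimates were positive, this median cannot show changes of opposite sign.

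The nearest to the threshold in females was cry, at 206 ± 26.7 CPM under group housing and 289 ± 19.9 CPM under isolation, a log2 difference of 0.49 (SE 0.15, 95% interval 0.19 to 0.80, edgeR adjusted p = 0.0846). vri had 271 ± 72.2 against 166 ± 28.0 CPM (-0.71, SE 0.27, adjusted p = 0.223). per had 49.9 ± 24.6 against 27.4 ± 6.36 CPM (-0.86, SE 0.32, edgeR adjusted p = 0.213). dbt had 309 ± 62.2 against 406 ± 76.8 CPM (0.39, SE 0.15, edgeR adjusted p = 0.215). For tim the means were 499 ± 262 and 308 ± 75.9 CPM, a log2 difference of -0.69 with an interval from -1.69 to 0.31. Clk differed by 0.28 on the log2 scale, with an interval from -0.43 to 0.995, so neither gene's change could be resolved at this spread.

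Some female libraries stood apart by housing without a call. Isolated and group-housed libraries did not overlap for 3 of 10 clock genes, against 16.3% of all features. vri was the 1 gene below in every isolated library (7.07% of all features), and cry and Pdfr were the 2 above (9.23%). Pdfr had 111, 117 and 127 CPM under group housing and 139, 129 and 144 CPM under isolation (log2 difference 0.21, SE 0.12, edgeR adjusted p = 0.432). Within batches the female log2 differences were -0.92 and -0.57 for vri in batches 1 and 2, 0.54 and 0.48 for cry, 0.42 and 0.38 for dbt and -1.20 and -0.48 for per. Leaving out a library changed the count in 2 of 12 such fits. Without group-housed female replicate 2, in which tim and per were at their lowest of that group, per passed (log2 difference -1.20, edgeR adjusted p = 0.000967) and so did cry (0.58, adjusted p = 0.038), against 4.36% of features in that fit. cry alone also passed without group-housed male replicate 2 (edgeR adjusted p = 0.0481), against 3.25%.

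In males none of the 10 passed edgeR's adjusted threshold, against 0.0781% of features, none had an unadjusted p under 0.05, against 2.66%, and DESeq2 and limma-voom called 0 as well, against 0.254% and 0.195%. tim had 519 ± 230 CPM under group housing and 359 ± 65.7 CPM under isolation, a log2 difference of -0.53 (SE 0.45, interval -1.53 to 0.46). For vri it was -0.35 (SE 0.26), for Pdp1 -0.38 (SE 0.26), for Clk 0.24 (SE 0.32), for per -0.17 (SE 0.30) and for cry 0.14 (SE 0.14), with edgeR adjusted p = 1 for each. The estimates for cyc, cwo, dbt and Pdfr lay between -0.03 and 0.06. No clock gene separated isolated from group-housed males without overlap (0 of 10, against 5.81% of features, 3.19% above and 2.62% below). Within batches the log2 difference of tim was -0.50 and -0.39, while that of per was -0.59 in batch 1 and 0.06 in batch 2.

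The isolation effect was compared between the sexes by an interaction term. None of the 10 clock genes passed, against 0.44% of features (edgeR), and none had an unadjusted p under 0.05, against 7.1%. DESeq2 and limma-voom called 0, against 1.38% and 0.703% of features. The difference, females minus males, was -0.70 for per (SE 0.43, edgeR adjusted p = 0.855), 0.35 for cry (SE 0.20, interval -0.08 to 0.79) and 0.34 for dbt (SE 0.21). For tim it was -0.16, with an interval from -1.56 to 1.25, which leaves differences of more than 1 log2 unit in either direction within reach.

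**Figure D5:**
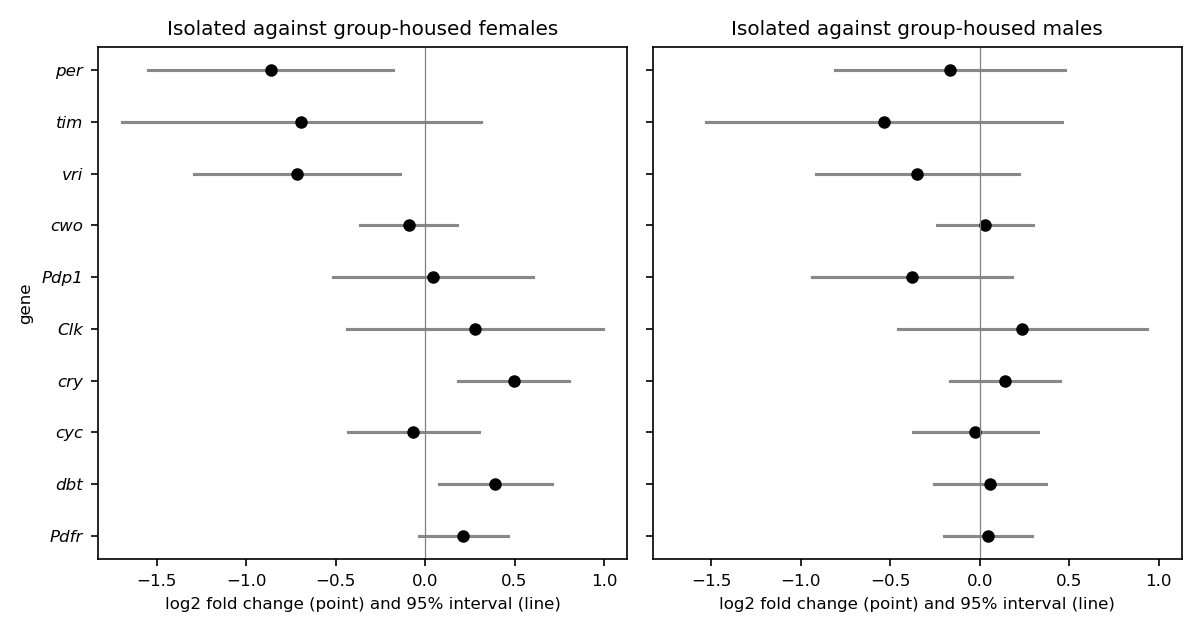
Log2 fold change, isolated over group-housed, of each clock gene (points) with its 95% interval (lines) in females (left) and males (right), from the edgeR fit of all 12 libraries. In females the intervals of per, vri, cry and dbt exclude 0 before adjustment over features, and in males every interval includes 0.

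Between the sexes, no clock gene was called under group housing (0 of 10, against 2.73% of features) or under isolation (0 of 10, against 4.24%) by edgeR. Unadjusted, there was 0 under group housing (12.5% of all features) and 1 under isolation, Pdfr (16.6% of all features). DESeq2 called 0 in both, against 4.32% and 6.77% of features, and limma-voom 0, against 4.13% and 5.12%. Isolated females had 137 ± 7.34 CPM of Pdfr and isolated males 115 ± 4.57 CPM, a log2 difference of 0.26 (SE 0.12, edgeR adjusted p = 0.271). The estimate for cry, group-housed females against group-housed males, was -0.28 (SE 0.14, edgeR adjusted p = 0.455).

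Between the batches, none of the 10 passed with edgeR, against 3.93% of features. dbt, at 0.36 log2 units higher in batch 2 (SE 0.11, edgeR adjusted p = 0.0909), had the only unadjusted p under 0.05, against 19.5% of features. DESeq2 called dbt (adjusted p = 0.0127), against 8.27%, and limma-voom called 0, against 5.07%. The batch 1 library was the lowest of its group for dbt in group-housed females at 237 CPM, in isolated females at 317 CPM and in group-housed males at 280 CPM, but not in isolated males at 298 CPM. Without isolated male replicate 1, whose deposited column is marked as merged, edgeR called dbt (adjusted p = 0.0212), against 7.55% of features.

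The wider clock pathway was read from 4 lists, which share 1 gene, Usp8 (also CG5798), held by both the first and the last. Of 23 kinases, phosphatases, degradation, transcription and translation partners of the clock proteins, 0 passed in any of the 6 contrasts, against 0.0781% to 4.24% of all features by contrast. In females the median log2 difference of this list was 0.15, against -0.02 over all features. Its smallest p values in females were those of Usp8, a deubiquitinating enzyme (log2 difference -0.49, SE 0.25, edgeR adjusted p = 0.39), and of sgg, the glycogen synthase kinase that phosphorylates TIM (0.36, SE 0.21, edgeR adjusted p = 0.46). In males they were those of Hr51 (0.79, SE 0.45, edgeR adjusted p = 1), a nuclear receptor also called unfulfilled, and of Bdbt (0.46, SE 0.34, edgeR adjusted p = 1), which binds DBT.

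Of 19 neuropeptides and receptors of clock neurons, 1 was lower in isolated females, 1 of 19 against 3.48% of all features, and 0 passed in the other contrasts. CNMa, a neuropeptide found in some dorsal clock neurons among other cells, had 6.24 to 6.61 CPM under group housing and 0.450 to 2.09 CPM under isolation in females. Its log2 difference was -2.02 (SE 0.52, edgeR adjusted p = 0.0435), at low counts. The call was kept in 6 of 11 settings and in 2 of 12 fits that left out a library, with adjusted p up to 0.831, while the log2 difference stayed between -2.29 and -1.69. In males CNMa had 1.66 to 4.18 against 1.15 to 1.58 CPM (-1.14, SE 0.50, edgeR adjusted p = 1). CCHa1, a peptide of certain dorsal clock neurons and of the gut, had 6.20 ± 0.970 CPM under group housing and 2.53 ± 0.624 CPM under isolation in females (-1.21, SE 0.37, edgeR adjusted p = 0.10). Its counts were low as well, at 2.09 to 3.24 CPM in isolated females. The other male gene named by rule, the receptor gene TrissinR, differed by 0.25 (SE 0.21). The list's median log2 difference was -0.20 in females and 0.00157 in males, against -0.02 and -0.00179 over all features. Between isolated females and isolated males, 8 of 19 had an unadjusted edgeR p under 0.05, against 16.6% of all features. The list's median in that contrast was -0.33, against -0.02 over all features.

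Of 9 genes of light input to the clock, none passed in any contrast, against 0.0781% to 4.24% of all features. In females HisCl1 and ort, the histamine receptors downstream of photoreceptors, differed by -0.49 (SE 0.18, edgeR adjusted p = 0.193) and -0.44 (SE 0.25, edgeR adjusted p = 0.449). In males qsm, which acts in the light response of clock neurons, differed by 0.33 (SE 0.16) and Rh6, a rhodopsin, by -0.28 (SE 0.15), with edgeR adjusted p = 1 for both. The median of the list was -0.23 in females and -0.08 in males.

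Of 15 clock output genes, 14 could be tested. takeout (to), a secreted protein under clock control that is linked to feeding, rose in isolated females by 2.80 log2 units (SE 0.34, edgeR adjusted p = 0.000387) and was the 1 output gene of 14 called there, against 3.48% of all features. The fat body marker sum was also higher in those libraries, at 52540 to 66970 against 25460 to 32960 CPM, and its part in the takeout and CNMa values was not tested. The other named by rule, Ugt35B1, a UDP-glycosyltransferase, had 259 ± 39.2 against 375 ± 44.4 CPM in females (0.54, SE 0.17, edgeR adjusted p = 0.121) and 310 ± 76.6 against 395 ± 29.3 CPM in males (0.35, SE 0.17, edgeR adjusted p = 1). None passed in males. Under group housing 2 of 14 were lower in females than in males, against 2.73% of all features. These were takeout (-2.54, SE 0.34, edgeR adjusted p = 0.000802) and sxe1, a cytochrome P450 listed as Cyp4d21 (-3.11, SE 0.15, edgeR adjusted p = 1.502e-09). Under isolation sxe1 alone was lower in females, 1 of 14 against 4.24% of all features (-3.32, SE 0.15, edgeR adjusted p = 9.788e-10). ebony (e), an enzyme of glia that conjugates amines, was lower in batch 2 by -1.74 (SE 0.20, edgeR adjusted p = 0.000601). It was the 1 output gene of 14 called between batches, against 3.93% of all features.

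takeout and the clock phase index were set side by side, since takeout is clock controlled. Group-housed females had 157, 53.7 and 104 CPM of takeout at indices of 0.75, 1.51 and -0.72, and isolated females had 595, 892 and 664 CPM at -0.86, -0.67 and -0.18. Group-housed males had 582, 787 and 433 CPM at 0.53, -0.63 and 0.95, and isolated males 517, 557 and 412 CPM at -0.19, -0.50 and -0.0024. In both male groups the order of takeout was the reverse of that of the index, which was not so in either female group. With the index as a further covariate, an alternative chosen after seeing the data, the female log2 difference of takeout was 2.42 (SE 0.34, edgeR adjusted p = 0.00144) and the difference between the sexes 2.86 (SE 0.39, edgeR adjusted p = 0.0025). In that fit 191 features were called in females, against 356 without the index. The index was computed from clock genes of the same libraries and takes up a residual degree of freedom. The fit therefore cannot show how much of the female difference goes with clock phase. In these libraries the index and the housing cannot be told apart fully, since the mean index was lower under isolation in both sexes. Isolated minus group-housed was -1.08 in females and -0.51 in males, although the groups overlapped.

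The genes whose pattern was most like that of tim and of Clk were ranked over 12 libraries, as Pearson r of log2 CPM centred within batches, among 9313 features. Those most like tim were Usp8 (r = 0.919, 85.3 to 174 CPM), Tgt, a transglycosylase of transfer RNA (r = 0.883, 3.93 to 8.23 CPM), and Slob, which encodes a binding partner of the Slowpoke potassium channel (r = 0.869, 461 to 645 CPM). Those most like Clk were a Stalker2 transposon insertion (r = 0.914, 0.851 to 4.44 CPM), ple, the tyrosine hydroxylase of dopamine synthesis (r = 0.864, 113 to 218 CPM), and CG42329 (r = 0.863, 20.6 to 68.2 CPM). These ranks are a description of the libraries, which share depth and pools of heads between genes.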

How the data were processed

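Whole-number counts of reads, deposited without normalization by the authors, cover 24228 features in 12 libraries. Tools named without roles in the submitters' processing notes are HTSeq 2.0.5, STAR 2.7.10b, edgeR 4.4.1, Picard 2.27.5 and R 4.4.0. The build, annotation and strand setting were not given in the sources used here. Lines naming no gene, 10.2% to 13.2% of each column, were left out. A further number per feature, not tied to a library, was not used. Replicates differed by more than counting noise (chi-square over its degrees of freedom, 4.48 to 65.7 per pair).

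The counts were fitted with edgeR 4.0.16 (R 4.3.3, limma 3.58.1): filterByExpr by group with at least 10 counts and a total of 15, which kept 10238 features, TMM scaling with factors from 0.860 to 1.14, and a robust quasi-likelihood model of 4 group means and batch over 12 libraries (7 residual degrees of freedom). P-values were adjusted by Benjamini-Hochberg over all features tested, at a threshold of 0.05. CPM are relative to TMM-scaled totals, marker sums to plain totals, and log2 CPM carries a prior count of 2. Levels per kilobase used exon lengths of BDGP6.54, and the ratio of tim to Clk is of plain counts. Alternatives were other scalings, filters, batch terms and subsets, DESeq2 1.42.0, limma-voom and leaving out each library. The fit was also run on counts simulated from its own estimates of spread, without a batch effect. No result here rests on that run. The clock genes and all lists were chosen with earlier results of these data known. Genes outside the 10 were named by rule: those called in a contrast, otherwise the 2 with the smallest p per list in the female and male isolation contrasts, and the 3 most like tim and Clk. All 66 listed symbols were matched.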

Additional observations from a re-analysis of the deposited data

Results flagged for a closer look

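takeout was the 1 result singled out for a difference between groups under the same contrast. Its isolation effect was 2.80 log2 units in females and -0.28 in males (edgeR adjusted p = 1 in males), and the interaction term, females minus males, was 3.08 (SE 0.46, edgeR adjusted p = 0.00679). It lay between 2.56 and 3.62 in all alternatives, and its call was lost in 2 of them (edgeR adjusted p = 0.139 and 0.082). All 3 isolated female libraries, at 595 to 892 CPM, were above the 3 group-housed ones, at 53.7 to 157 CPM, whereas the male groups overlapped at 412 to 557 CPM under isolation and 433 to 787 CPM under group housing. No clock gene met that criterion, and groups of 3 libraries are too small for the test of outlying samples.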

How the results depend on the processing

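The count of clock genes called stayed at 0 in males, in the difference between the sexes and in both comparisons of the sexes under every alternative run. In females it was 3 with no filter on low counts (per, tim and vri; 2.43% of 18540 features called), 1 with DESeq2 (cry), and 0 to 2 when each library was left out in turn. Between batches it was 1 with DESeq2 (dbt) and 0 to 1 with each library left out. The cause was not tested. Of 1330 alternative values of single clock genes, 1248 kept direction and side of the threshold, 9 became called and 73 changed sign without a call in either fit; none reversed as a called value. Of 156 values of takeout, CNMa, sxe1 and ebony, 139 kept both and 17 lost the call, 15 of them CNMa. takeout's difference between the sexes had edgeR adjusted p = 0.139 with isolated females represented by replicate 0 alone and 0.082 without group-housed female replicate 2, with the log2 difference between 2.56 and 3.62 over all alternatives. The phase index differences kept their sign in all alternatives: females -1.37 to -0.82 and males -0.70 to -0.41 under other gene choices, a prior count of 0.5, batch 2 alone and isolated females by replicate 0 alone, and -1.70 to -0.58 and -0.97 to -0.18 with libraries left out. With the index as covariate, which takes up a residual degree of freedom, 191 features were called in females in place of 356. With the replicate number as a replicate block in place of batch, 0 clock genes were called in each contrast. Same-numbered libraries of the housing groups correlated at 0.505, 0.175 and -0.0341 in females and 0.374, -0.184 and 0.0647 in males. No pairing beyond the batch was seen, but so few libraries cannot exclude one. Depth limits per most, with 46 reads in the shallowest library.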
